A study of Mus musculus with 15 samples.

Results

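The miR-106b/miR-25 cluster, in an intron of the gene Mcm7 on chromosome 5, and the miR-106a/miR-363 cluster on the X chromosome are paralogous groups of microRNAs (miRNAs). Both are relatives of the miR-17/miR-92a cluster of chromosome 14. Members were chosen by name, as the rows of the deposited table equal to mmu-miR-106b-5p, mmu-miR-106b-3p, mmu-miR-93-5p or mmu-miR-25-3p (4 of the miR-106b/miR-25 cluster) and to mmu-miR-106a-5p, mmu-miR-20b-5p or mmu-miR-363-3p (3 of the miR-106a/miR-363 cluster). These are 7 of 1424 mature miRNAs in the table, and the species prefix mmu is left out from here on. All 7 were well above the filter on low values in every library, and 818 of the 1424 miRNAs passed it and were tested.

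Small RNA was sequenced from whole lungs of C57BL/6 mice labelled 11 weeks old, taken 7 days after 1 intratracheal dose. The groups were R213G bleomycin (n = 4), R213G PBS (n = 4), WT bleomycin (n = 4) and WT PBS (n = 3). Both copies of the gene for extracellular superoxide dismutase (EC-SOD) carried the R213G change in R213G mice and were unchanged in WT mice. EC-SOD is an antioxidant enzyme held in the matrix, and the variant form is held there less firmly. Bleomycin, a drug used to injure the lung, was given as 100 uL at 1 U/mL in phosphate-buffered saline (PBS), and the PBS groups received the saline alone. Every lung was rinsed of blood by a PBS flush from the right side of the heart. Mice of both sexes were used. Which library came from which sex is not given here, and the part of sex in the values of the X-linked cluster was not tested.

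A miRNA is cut from a hairpin as a short strand, from the 5′ arm (5p) or the 3′ arm (3p), and represses messenger RNAs that pair with its seed, the stretch near its 5′ end. In mice, loss of the miR-17/miR-92a cluster leaves the newborn with small lungs and is lethal around birth, while loss of either of its paralogues alone leaves the animal viable. Members of the family restrain inhibitors of cell division and inducers of cell death, and in cultured cells the miR-106b/miR-25 cluster is transcribed with Mcm7, a subunit of the helicase that opens DNA for replication.

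The mature sequences are shown because they fix which members share a seed and how little separates some of them from their relatives. Capitals mark the seed, bases 2 to 8 from the 5′ end, and the letters are those of RefSeq, where 7 of 7 members matched.
miR-106b-5p: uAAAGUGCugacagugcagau
miR-93-5p: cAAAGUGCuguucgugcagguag
miR-106a-5p: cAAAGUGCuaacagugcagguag
miR-20b-5p: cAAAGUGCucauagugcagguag
miR-25-3p: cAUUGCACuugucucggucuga
miR-363-3p: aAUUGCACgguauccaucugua
miR-106b-3p: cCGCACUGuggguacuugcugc

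The 7 members thus fell into 3 seed groups. Both clusters contributed 2 members each to the seed AAAGUGC and 1 member each to AUUGCAC, and miR-106b-3p stood alone. For comparison, relatives encoded on chromosome 14 are these, of which miR-92a-3p is encoded in the X-linked cluster as well.
miR-17-5p: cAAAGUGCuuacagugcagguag
miR-20a-5p: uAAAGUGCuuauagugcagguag
miR-92a-3p: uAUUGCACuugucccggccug
Counting positions from 1 at the 5′ end, miR-106a-5p differed from miR-17-5p by 1 base (U10A), and miR-20b-5p differed from miR-20a-5p by 2 (U1C and U10C). By contrast miR-363-3p differed from miR-25-3p at 13 positions and shared little beyond the seed. No source used here says how the authors' counting divided reads between near-identical relatives, so the values of miR-106a-5p and miR-20b-5p carry that uncertainty.

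In RefSeq's annotation of the mouse build GRCm38.p6, the chromosome 5 cluster held 3 hairpins within 498 bp on the minus strand (chr5:138165321-138165818). In the GENCODE annotation of GRCm38 all of them lie in intron 13 of an Mcm7 transcript that has 15 exons. Within the cluster lay miR-106b-5p (chr5:138165787-138165807), miR-106b-3p (chr5:138165746-138165767), miR-93-5p (chr5:138165574-138165596) and miR-25-3p (chr5:138165332-138165353). The X-linked cluster held 6 hairpins within 875 bp, also on the minus strand (chrX:52741693-52742567). Its members were miR-106a-5p (chrX:52742541-52742563), miR-20b-5p (chrX:52742159-52742181) and miR-363-3p (chrX:52741697-52741718). In GENCODE the miR-106a hairpin overlapped an exon of the non-coding RNA Kis2, and the other X-linked hairpins lay outside Kis2. Neither host transcript was measured, since the table holds miRNAs only. No source used here names the build that the authors aligned to.

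Each deposited value was read as log2 of 1 plus a count that the authors scaled to a common library size (an equalized count). The sum of these over a library lay between 18087290 and 24759615 and is not a read depth. Lung miRNAs of epithelium, endothelium and smooth muscle were abundant everywhere: the 5 listed summed to 21.51 to 21.83 (log2) in R213G bleomycin, 21.83 to 22.05 in R213G PBS, 21.59 to 21.88 in WT bleomycin and 21.82 to 22.07 in WT PBS lungs. Most of each sum was miR-143-3p of smooth muscle. In R213G bleomycin lungs it averaged 21.28, against 18.93 for miR-126a-3p of endothelium. Epithelial miR-200b-3p and miR-200c-3p averaged 15.85 and 13.69 there, so the sum says little about them. Differences are given on the log2 scale with the standard error (SE) of limma, and an adjusted p under 0.05 is called.

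The 4 chromosome 5 members were far more abundant than the 3 X-linked members in every library. The X-linked cluster also encodes miR-92a-3p and miR-19b-3p, whose reads cannot be told from those of chromosome 14, so the clusters as wholes were not ranked. Per nucleotide of mature sequence, miR-25-3p had a median of 2240 equalized counts over the 15 libraries (range 1835 to 2662), miR-93-5p 894 (at most 1193) and miR-106b-5p 151 (120.0 to 224). The opposite arm, miR-106b-3p, had a median of 51.8 (40.4 to 64.1). On the X chromosome miR-363-3p had a median of 10.6 (7.05 to 15.3), miR-20b-5p 4.76 (3.21 to 6.92) and miR-106a-5p 3.12 (2.36 to 5.06). The ranges of neighbours in this order did not overlap except for the last pair, and there miR-20b-5p was the higher in each of the 15 libraries. Per nucleotide, the summed miR-106b/miR-25 members exceeded the summed miR-106a/miR-363 members by 117 to 237 times (median 180).

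Among the members of each cluster, the one at the 3′ end, with the seed AUUGCAC, was the most abundant. In the miR-106b/miR-25 cluster miR-25-3p made up 62.3% to 70.8% of the summed equalized counts, and in the miR-106a/miR-363 cluster miR-363-3p made up 47.8% to 62.1%. By mean log2 value over the whole table, miR-25-3p ranked 52, miR-93-5p 76, miR-106b-5p 141 and miR-106b-3p 196 of 1424. The X-linked members ranked 292 (miR-363-3p), 367 (miR-20b-5p) and 398 (miR-106a-5p).

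**Figure D1:**
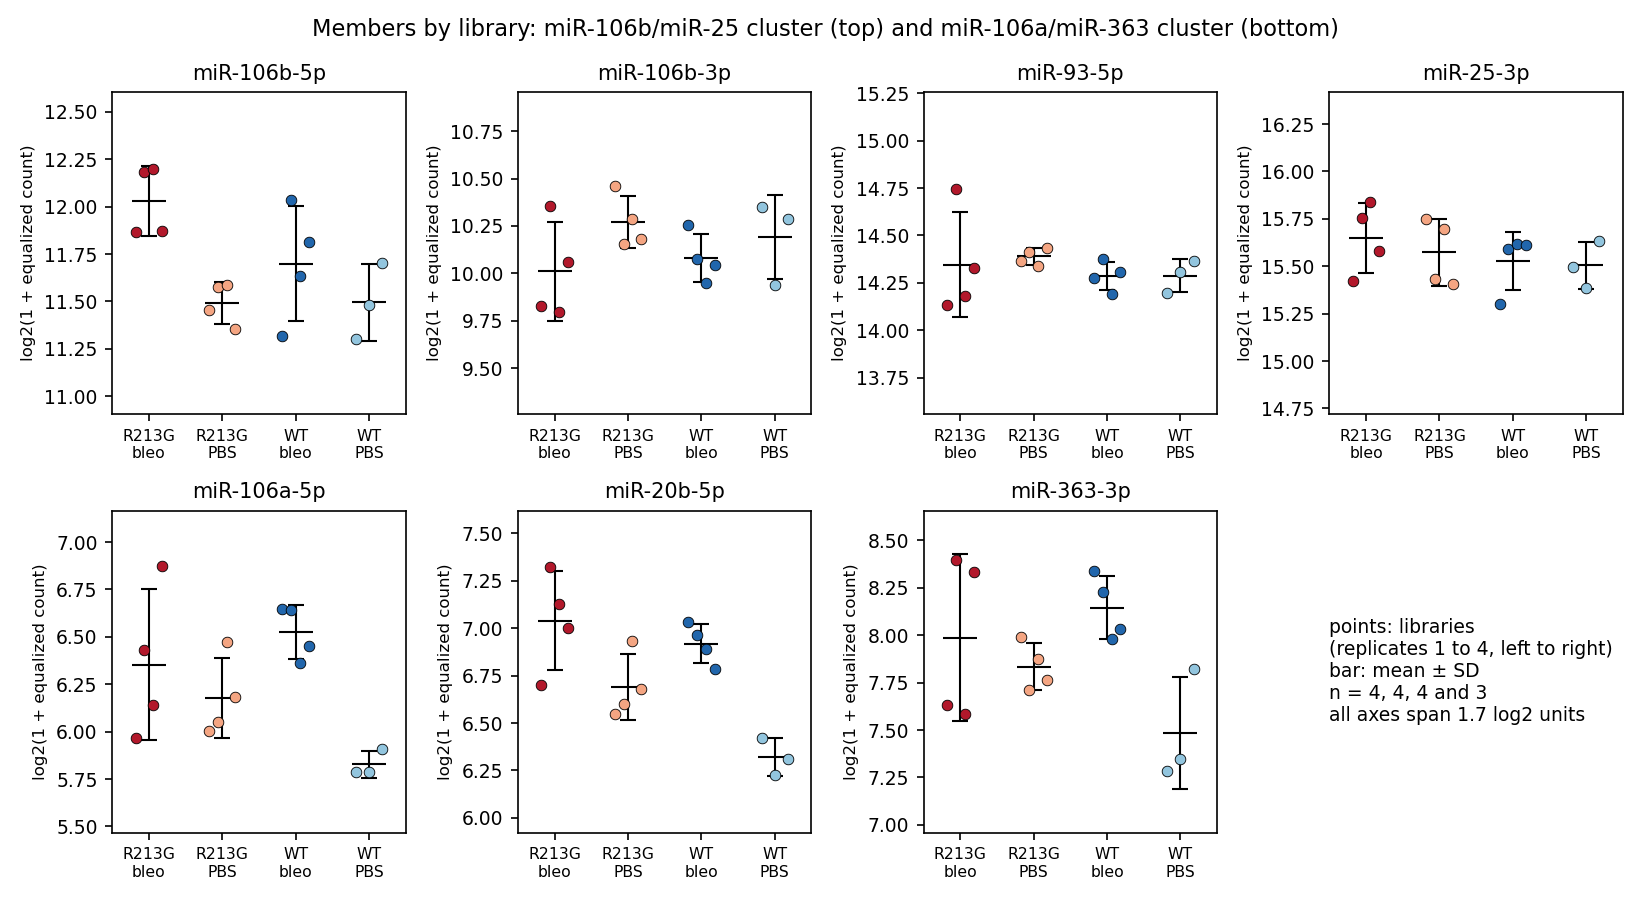
Deposited log2(1 + equalized count) of the 7 members in every library, with replicates from left to right in each group and a bar for the mean ± SD (n = 4, 4, 4 and 3). All axes span the same log2 range. WT PBS libraries are the lowest for miR-106a-5p and miR-20b-5p (at most 5.91 and 6.42), and R213G bleomycin libraries lie above all R213G PBS libraries for miR-106b-5p.

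After bleomycin, different members were called in the 2 genotypes, and no member passed the test of the difference between the genotypes. In WT lungs, all 3 members of the miR-106a/miR-363 cluster rose and none of the 4 members of the miR-106b/miR-25 cluster was called. In R213G lungs, miR-106b-5p of the chromosome 5 cluster rose and no member of the X-linked cluster was called. No member fell in either genotype. The background differed between the genotypes too: of all tested miRNAs, 42.1% were called in R213G and 26.7% in WT lungs. These calls split into 182 higher and 162 lower in R213G and 134 higher and 84 lower in WT. With equal library medians there were 148 higher and 199 lower in R213G and 110 higher and 121 lower in WT. With quantile normalization there were 162 higher and 173 lower in R213G and 114 higher and 108 lower in WT. In bulk lung, fewer cells of a type and less of the miRNA per cell cannot be told apart.

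Bleomycin against PBS in R213G lungs called 1 of 7 members, as higher, where 22.2% of all tested miRNAs were called higher and 19.8% lower. At an unadjusted p under 0.05 there were 2 of 7 members, beside 49.9% of all tested miRNAs. Of the 7, miR-106b-5p, which in human cells represses the cell cycle inhibitor p21, had log2 values of 11.87, 12.18, 12.20 and 11.87 in R213G bleomycin lungs, against 11.45, 11.58, 11.58 and 11.35 in R213G PBS lungs. All 4 bleomycin libraries lay above all 4 PBS libraries, as was the case, in either direction, for 39.2% of tested miRNAs. The log2 difference was 0.54 ± 0.14 (SE; 95% confidence interval 0.24 to 0.84; limma adjusted p = 0.00657), or 45.3% higher. It ranked 198 of 818 by p. The call held under all alternatives tried, with adjusted p between 0.00232 and 0.0230. In the authors' deposited table the q-value of the parametric test was 0.0460.

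The other arm of the same hairpin was not called. For miR-106b-3p the log2 values were 9.83, 10.36, 9.80 and 10.06 in R213G bleomycin lungs, against 10.46, 10.16, 10.29 and 10.18 in R213G PBS lungs. Here 3 of the 4 bleomycin libraries lay below all PBS libraries, and replicate 2 lay within their range. The difference was -0.26 ± 0.14 (SE, limma adjusted p = 0.134). It passed, at -0.38 (adjusted p = 0.0289), without R213G bleomycin replicate 2, and at -0.39 (adjusted p = 0.0357) when all libraries were given equal medians.

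Within each library, the 5p minus 3p difference of miR-106b was 2.04, 1.83, 2.40 and 1.81 log2 units in R213G bleomycin lungs, against 0.99, 1.42, 1.30 and 1.17 in R213G PBS lungs. The groups did not overlap. In WT it was 1.06, 1.96, 1.68 and 1.77 in bleomycin lungs, against 0.95, 1.54 and 1.41 in PBS lungs, and there WT bleomycin replicate 1 lay among the PBS libraries. The means were 2.02 ± 0.28 (SD, n = 4) in R213G bleomycin, 1.22 ± 0.18 (n = 4) in R213G PBS, 1.62 ± 0.39 (n = 4) in WT bleomycin and 1.30 ± 0.31 (n = 3) in WT PBS lungs. This within-library difference is given as a description, and how many tested hairpins part in this way was not counted. It was not particular to miR-106b. In R213G the bleomycin differences of the 5p and 3p arms were 0.36 and -0.19 for miR-17, 2.50 and -0.02 for miR-18a and 0.57 and 0.10 for miR-20a. Those of miR-19a were 0.80 and 0.80. Hairpins of the members' own clusters gave 1.24 and -0.02 for miR-18b, 0.35 and -0.35 for miR-20b and -0.04 and -0.26 for miR-93. For miR-25 (-0.03 and 0.08) and miR-363 (-0.51 and 0.15) the 3p arm had the higher difference. The measure for miR-106b is taken within a library. It is unchanged by a constant log2 shift of a whole library, and it was not recomputed under quantile normalization.

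The 2 most abundant members were among the least variable tested miRNAs. Log2 values of miR-93-5p, which shares the seed of miR-106b-5p, were 14.14, 14.74, 14.18 and 14.33 in R213G bleomycin lungs, against 14.37, 14.42, 14.34 and 14.44 in R213G PBS lungs. The values of miR-25-3p, known in human cells as a repressor of the death inducer Bim, were 15.42, 15.75, 15.84 and 15.58 in R213G bleomycin lungs, against 15.75, 15.44, 15.70 and 15.41 in R213G PBS lungs. In both cases the PBS range lay wholly or largely inside the bleomycin range. The differences were -0.04 ± 0.11 (SE; 95% interval -0.28 to 0.19) for miR-93-5p and 0.08 ± 0.11 (-0.17 to 0.32) for miR-25-3p (limma adjusted p = 0.777 and 0.622). Over all 15 libraries their SDs were 0.15 and 0.16, against a median of 0.43 for all tested miRNAs, and 3.55% and 4.40% of those had a smaller SD. That median covers miRNAs of every level, and miRNAs of like abundance were not compared separately.

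Of the X-linked cluster, miR-20b-5p came nearest to a call in R213G lungs. Its log2 values were 6.701, 7.323, 7.130 and 7.003 in bleomycin lungs, against 6.545, 6.601, 6.935 and 6.679 in PBS lungs. Replicate 1 of the bleomycin group and replicate 3 of the PBS group made the groups overlap. The difference was 0.35 ± 0.15 (SE, limma adjusted p = 0.0667). It passed without either of these libraries, at 0.46 (adjusted p = 0.0215) without R213G bleomycin replicate 1 and at 0.43 (adjusted p = 0.0365) without R213G PBS replicate 3. With all libraries kept it passed under a stricter filter (adjusted p = 0.0486) and with array weights (0.34, adjusted p = 0.0480).

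For miR-106a-5p the R213G values were 5.97, 6.43, 6.14 and 6.88 after bleomycin, against 6.00, 6.05, 6.47 and 6.18 after PBS. Those of miR-363-3p were 7.63, 8.40, 7.58 and 8.34 after bleomycin, against 7.99, 7.71, 7.87 and 7.76 after PBS. For miR-363-3p the bleomycin libraries were split: replicates 2 and 4 lay above all PBS libraries and replicates 1 and 3 below them. The differences were 0.18 ± 0.18 (SE) for miR-106a-5p and 0.15 ± 0.19 (SE) for miR-363-3p (limma adjusted p = 0.459 and 0.538).

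Leukocyte markers were compared in the same libraries. The 4 listed leukocyte miRNAs (miR-223-3p, miR-142a-3p, miR-142a-5p and miR-150-5p) summed to 17.05 and 17.08 (log2) in R213G bleomycin replicates 1 and 3, and to 17.33 and 17.21 in replicates 2 and 4, while the R213G PBS libraries lay between 17.27 and 17.44. The single markers did not all follow the sum, since miR-223-3p and miR-142a-3p were highest in replicate 3. Replicates 1 and 3 of this group also carry the lower sample tag numbers. So do replicates 1 and 3 of R213G PBS, where the order was the opposite. There miR-363-3p was 7.99 and 7.87, against 7.71 and 7.76 in replicates 2 and 4. The leukocyte sum was 17.44 and 17.38, against 17.30 and 17.27. With the tag number as a term in the fit, the R213G difference was 0.27 for miR-363-3p (adjusted p = 0.305) and 0.30 for miR-106a-5p (adjusted p = 0.230). The part of leukocyte content in these values was not tested.

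**Figure D2:**
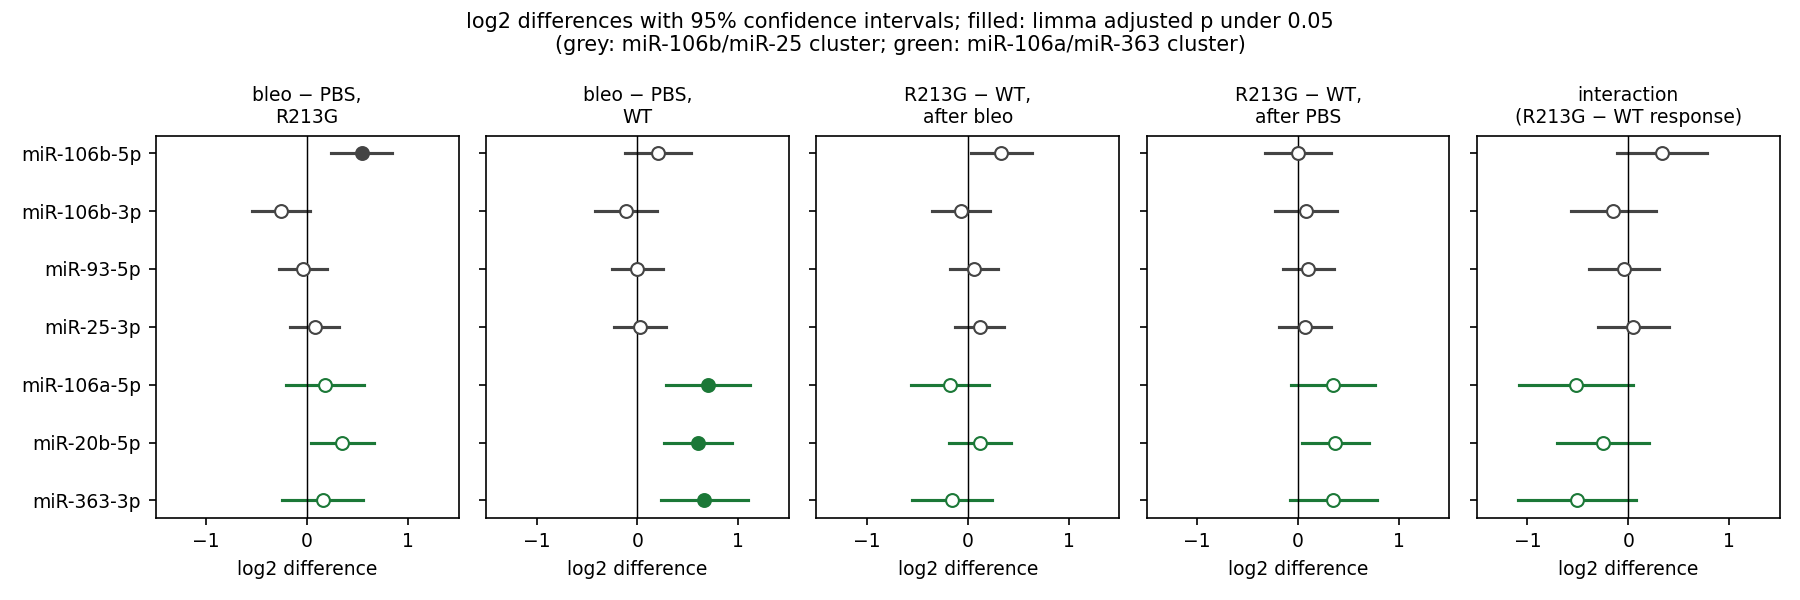
Log2 differences of the 7 members in the 5 contrasts, with 95% confidence intervals as lines. Filled points passed limma's adjusted p under 0.05: miR-106b-5p in R213G lungs (0.54), and miR-106a-5p (0.70), miR-20b-5p (0.60) and miR-363-3p (0.66) in WT lungs, while no member is filled in the genotype contrasts or the interaction.

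Bleomycin against PBS in WT lungs called 3 of 7 members, all as higher and all of the X-linked cluster, where 16.4% of all tested miRNAs were called higher and 10.3% lower. The same 3 were the members with an unadjusted p under 0.05, beside 38.3% of all tested miRNAs. Log2 values of miR-106a-5p were 6.65, 6.64, 6.36 and 6.45 in WT bleomycin lungs, against 5.79, 5.79 and 5.91 in WT PBS lungs. Its groups were apart by more than the range of either. The difference was 0.70 ± 0.20 (SE; 95% interval 0.28 to 1.11; limma adjusted p = 0.0143), or 62.2% higher, and it was called under all alternatives tried (adjusted p from 0.00605 to 0.0473).

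In the same lungs miR-20b-5p, a repressor of hypoxia-inducible factor in human tumour cells, had values of 7.03, 6.97, 6.89 and 6.79 after bleomycin, against 6.42, 6.22 and 6.31 after PBS. The difference was 0.60 ± 0.16 (SE; 95% interval 0.27 to 0.94; limma adjusted p = 0.00965), or 51.6% higher. This call was lost with quantile normalization (0.43, adjusted p = 0.0602) and held under the other alternatives.

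The values of miR-363-3p were 8.34, 8.23, 7.98 and 8.03 in WT bleomycin lungs, against 7.29, 7.35 and 7.82 in WT PBS lungs. WT PBS replicate 3 came close to the bleomycin libraries, but the groups did not overlap. Its difference of 0.66 ± 0.20 (SE; 95% interval 0.23 to 1.09; limma adjusted p = 0.0223), or 58.1% higher, was the least stable of the 3. It missed the threshold without WT bleomycin replicate 1 (0.60, adjusted p = 0.0530) or 2 (0.63, adjusted p = 0.0548), without WT PBS replicate 1 (0.56, adjusted p = 0.102) or 2 (0.59, adjusted p = 0.0897), and with quantile normalization (0.49, adjusted p = 0.111).

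In the authors' deposited table the q-value of the parametric test was 0.0535 for miR-106a-5p, 0.0542 for miR-20b-5p and 0.268 for miR-363-3p, none of them under 0.05. Non-overlapping groups were seen for 32.3% of all tested miRNAs in this contrast. The median log2 difference was 0.66 over the X-linked members and 0.01 over the chromosome 5 members, against 0.05 over all tested miRNAs. In R213G the medians were 0.18, 0.02 and 0.05 in the same order.

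None of the chromosome 5 members was called in WT lungs. Log2 values of miR-106b-5p were 11.32, 12.03, 11.63 and 11.82 in WT bleomycin lungs, against 11.30, 11.48 and 11.70 in WT PBS lungs. WT bleomycin replicate 1 lay at the PBS level and replicates 2 and 4 above it, and the difference was 0.20 ± 0.15 (SE; 95% interval -0.12 to 0.53; limma adjusted p = 0.344). The values of miR-106b-3p were 10.25, 10.08, 9.95 and 10.04 in WT bleomycin lungs, against 10.35, 9.94 and 10.29 in WT PBS lungs, with a difference of -0.11 ± 0.15 (SE, adjusted p = 0.610).

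For miR-93-5p the WT values were 14.28, 14.37, 14.19 and 14.30 after bleomycin, against 14.19, 14.31 and 14.36 after PBS, and the ranges nearly coincided. For miR-25-3p they were 15.30, 15.59, 15.62 and 15.61 after bleomycin, against 15.50, 15.38 and 15.63 after PBS, with WT bleomycin replicate 1 the lowest. The 95% intervals of the differences were -0.26 to 0.25 for miR-93-5p and -0.24 to 0.29 for miR-25-3p. With quantile normalization miR-25-3p passed as higher (0.32, adjusted p = 0.0433), and with equal library medians its difference was -0.09.

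Leukocyte and red cell markers differed between the groups as well. The leukocyte sum (log2) was 17.13 to 17.51 in WT bleomycin and 16.85 to 16.99 in WT PBS lungs, so WT PBS was the lowest group for this list as it was for the X-linked cluster. Of these 4 markers 2 rose in WT, and in R213G 1 rose and 1 fell. Of all tested miRNAs, 16.4% were called higher in WT, and 22.2% higher and 19.8% lower in R213G. The sum of 5 red cell miRNAs was 14.59 to 15.10 in WT bleomycin and 16.51 to 17.79 in WT PBS lungs, and 15.40 to 17.22 in R213G bleomycin and 16.26 to 17.82 in R213G PBS lungs. Of these 5, 4 fell in WT and 3 in R213G, where 10.3% and 19.8% of all tested miRNAs were called lower. No marker of either list was at 0. Members of both clusters are made in blood cells too, and the part of cell content in the members' differences was not tested.

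**Figure D3:**
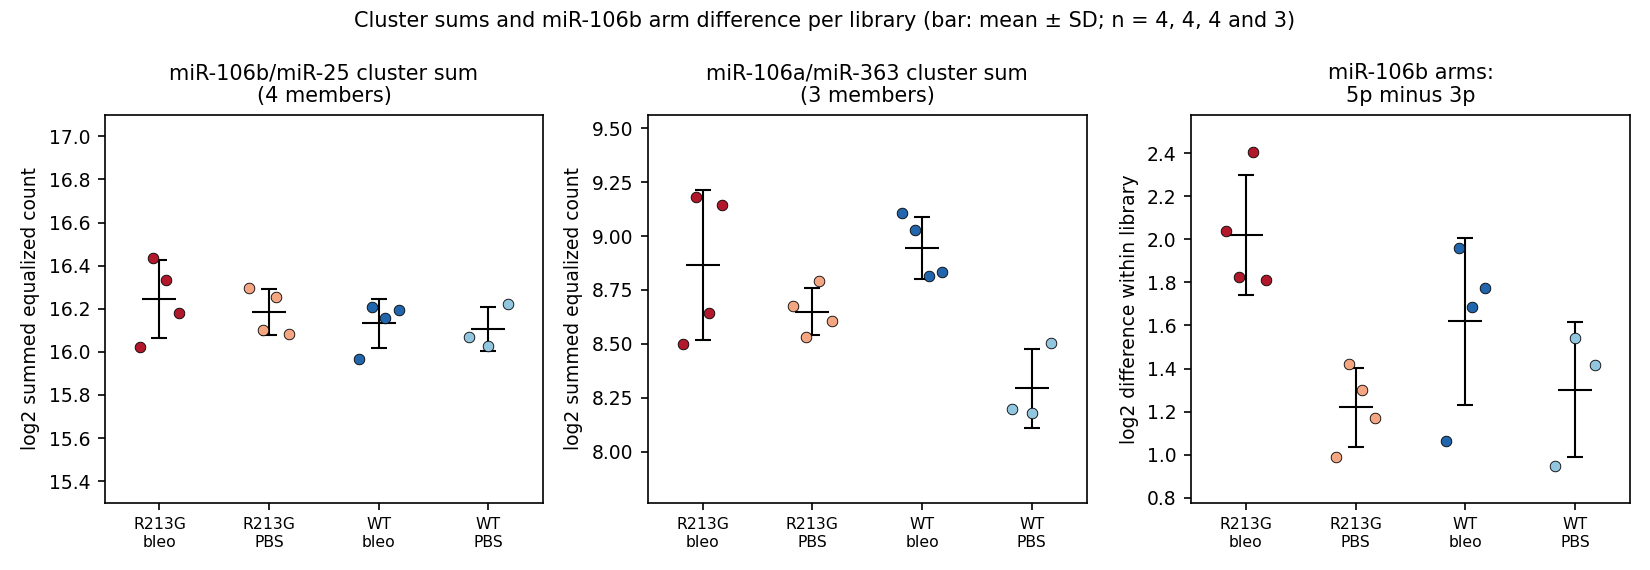
Log2 of the summed equalized counts of each cluster, and the 5p minus 3p difference of miR-106b, in every library, with a bar for the mean ± SD (n = 4, 4, 4 and 3). The miR-106b/miR-25 sum stays between 15.96 and 16.43 in all libraries, the miR-106a/miR-363 sum is 8.18 to 8.50 in WT PBS lungs and 8.82 to 9.11 in WT bleomycin lungs, and the arm difference of R213G bleomycin lungs lies above that of R213G PBS lungs.

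Summed over members, the clusters kept these patterns. The log2 sum of the miR-106a/miR-363 members was 8.87 ± 0.35 (SD, n = 4) in R213G bleomycin lungs and 8.65 ± 0.11 (n = 4) in R213G PBS lungs. It was 8.95 ± 0.14 (n = 4) in WT bleomycin lungs and 8.29 ± 0.18 (n = 3) in WT PBS lungs. The differences were 0.22 in R213G, within the spread of the bleomycin group, and 0.65 in WT, beyond the spread of both groups. The log2 sum of the miR-106b/miR-25 members was 16.24 ± 0.18 (SD, n = 4) in R213G bleomycin, 16.18 ± 0.11 (n = 4) in R213G PBS, 16.13 ± 0.11 (n = 4) in WT bleomycin and 16.11 ± 0.10 (n = 3) in WT PBS lungs, with differences of 0.06 in R213G and 0.02 in WT.

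Most of the miR-106b/miR-25 sum is miR-25-3p and miR-93-5p. Per nucleotide, the excess of the chromosome 5 members over the X-linked ones was 117 to 166 times in WT bleomycin lungs, against 212 to 237 times in WT PBS lungs, without overlap. R213G lungs gave 133 to 210 times in the bleomycin group, against 179 to 198 times in the PBS group, with overlap. How often other ratios part in WT was not counted, and single miRNAs did so there for 32.3% of those tested. As a share of all equalized counts in a library, the miR-106b/miR-25 members took 0.349% to 0.468% in R213G bleomycin and 0.314% to 0.359% in R213G PBS lungs, and 0.316% to 0.397% in WT bleomycin and 0.270% to 0.369% in WT PBS lungs. The sums that these shares are taken of differed too, at 20159504 on average in WT bleomycin against 22747598 in WT PBS lungs and 19290298 in R213G bleomycin against 22340360 in R213G PBS lungs.

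R213G against WT after bleomycin asks whether the genotypes differ in injured lung. By limma 0 of 7 members were called, as were 0 of all 818 tested miRNAs. At an unadjusted p under 0.05 there were 1 member and 97 tested miRNAs (11.9%). That member was miR-106b-5p, at 11.87 to 12.20 in R213G bleomycin lungs against 11.32 to 12.03 in WT bleomycin lungs. No member's groups were apart in this contrast, beside 5.5% of tested miRNAs whose groups were. Here the overlap came through WT bleomycin replicate 2, and the difference was 0.33 ± 0.14 (SE; 95% interval 0.03 to 0.63; limma adjusted p = 0.387). The other 6 members differed by -0.17 to 0.12.

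R213G against WT after PBS compares the genotypes without injury, and again 0 of 7 members and 0 of 818 tested miRNAs were called by limma, with 1 member and 44 tested miRNAs (5.38%) at an unadjusted p under 0.05. All 3 X-linked members were higher in R213G PBS lungs by a similar amount without passing the test. The differences were 0.35 ± 0.20 (SE) for miR-106a-5p, 0.37 ± 0.16 for miR-20b-5p and 0.35 ± 0.20 for miR-363-3p, each with a limma adjusted p of 0.827. The R213G and WT libraries did not overlap for miR-106a-5p (6.00 to 6.47 in R213G, against 5.79 to 5.91 in WT) and miR-20b-5p (6.55 to 6.94 in R213G, against 6.22 to 6.42 in WT), as was the case for 6.85% of tested miRNAs. For miR-363-3p the R213G range of 7.71 to 7.99 overlapped the WT range through WT PBS replicate 3, at 7.82.

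The 4 chromosome 5 members differed by -0.00 to 0.10 between the genotypes after PBS. The leukocyte marker sum was 17.27 to 17.44 in R213G PBS lungs, against 16.85 to 16.99 in WT PBS lungs, also without overlap. Its part in the difference of the X-linked members was not tested. The 3 WT PBS libraries enter both this contrast and the WT bleomycin contrast, so their low X-linked values weigh on both.

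The interaction asks whether the response to bleomycin differs between the genotypes. No member passed (0 of 7, and 0 of 818 tested miRNAs by limma, with 0 members and 65 tested miRNAs, 7.95%, at an unadjusted p under 0.05). The R213G response minus the WT response was -0.52 ± 0.27 (SE; 95% interval -1.09 to 0.05; limma adjusted p = 0.611) for miR-106a-5p and -0.51 ± 0.28 (-1.10 to 0.08; adjusted p = 0.625) for miR-363-3p. It was -0.25 ± 0.22 for miR-20b-5p and 0.33 ± 0.21 for miR-106b-5p, and between -0.15 and 0.05 for the remaining members. The different sets of members called in R213G and WT lungs are thus not shown to be a difference between the genotypes.

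Likeness of the members' patterns was described over the libraries. Each miRNA was centred on its own mean and the root mean square (RMS) difference of a pair was taken over the 15 libraries, where a smaller value means more alike. The 3 pairs within the miR-106a/miR-363 cluster had RMS differences of 0.18 to 0.25 log2 units (median 0.21), the 6 pairs within the miR-106b/miR-25 cluster 0.17 to 0.41 (median 0.23), and the 12 pairs between clusters 0.26 to 0.38 (median 0.34). The closest pair of the X-linked cluster was miR-106a-5p with miR-363-3p, which share no seed. The least alike pair of all was miR-106b-5p with miR-106b-3p (0.41), strands of 1 hairpin. Pairs share library, scaling and group differences, and a miRNA that varies little is close to any other such miRNA.

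Among tested miRNAs outside the members, those most like miR-25-3p were let-7d-5p, miR-26b-3p and miR-210-3p, with RMS differences of 0.12 each. All of them varied little. Most like miR-363-3p were miR-130b-3p (0.17), miR-702-3p (0.22) and miR-877-5p (0.23), and the first of these lay closer to it than miR-106a-5p did (0.18).

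Further strands come from the same hairpins or from the other hairpins of the X-linked cluster. Of 11 other products listed for the 2 clusters, 8 were tested. Of these, 2 rose and 1 fell in R213G, leaving 5 uncalled, where 42.1% of all tested miRNAs were called. In WT 1 rose and 0 fell, leaving 7 uncalled, where 26.7% of all tested miRNAs were called. The median difference of the 8 products was -0.15 in R213G and 0.21 in WT. The one that rose in both genotypes was miR-18b-5p of the X-linked cluster. Its seed, AAGGUGC, is that of none of the members, and it is shown with its chromosome 14 relative of the same seed.
miR-18b-5p: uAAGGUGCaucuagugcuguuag
miR-18a-5p: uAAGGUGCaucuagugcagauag
They differ at 2 positions, A18U and A20U, written from miR-18a-5p to miR-18b-5p.

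Log2 values of miR-18b-5p were 4.13, 4.89, 5.66 and 5.18 in R213G bleomycin lungs, against 3.92, 3.45, 4.06 and 3.49 in R213G PBS lungs. In WT they were 4.17, 4.66, 4.73 and 5.08 in bleomycin lungs, against 3.31, 2.68 and 3.19 in PBS lungs. The groups did not overlap in R213G or in WT, as was the case for 39.2% and 32.3% of tested miRNAs. In each genotype replicate 1 was the lowest bleomycin library. The differences were 1.24 ± 0.30 (SE, limma adjusted p = 0.00398) in R213G and 1.60 ± 0.33 (SE, adjusted p = 0.00170) in WT. Among the X-linked products it had the largest called difference in each genotype, at a low level, and miR-18a-5p is far more abundant.

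The near-identical relative miR-18a-5p rose in both genotypes, by 2.50 ± 0.42 (SE, limma adjusted p = 0.000281) in R213G and by 1.68 ± 0.45 (SE, adjusted p = 0.0111) in WT. Its level was 11.62 ± 0.58 (SD, n = 4) in R213G bleomycin, 9.12 ± 0.65 (n = 4) in R213G PBS, 10.51 ± 0.94 (n = 4) in WT bleomycin and 8.83 ± 0.55 (n = 3) in WT PBS lungs. In WT, bleomycin replicate 1 (9.14) lay below WT PBS replicate 3 (9.45).

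The remaining X-linked strands were scarce. Differences did not pass for miR-18b-3p (-0.02 in R213G and 0.56 in WT), miR-20b-3p (-0.35 and -0.44) and miR-363-5p (-0.51 and 0.85). The strands miR-106a-3p and miR-92a-2-5p did not pass the filter and were listed at 0 in all 7 PBS libraries, against at most 1.15 and 1.13 in R213G bleomycin and at most 0.90 and 1.87 in WT bleomycin lungs. Of the chromosome 5 hairpins, miR-93-3p (-0.26 in R213G, adjusted p = 0.0941, and 0.07 in WT) and miR-25-5p (-0.03 and 0.17) did not pass.

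Both miR-19b-3p and miR-92a-3p are made from the X-linked and from the chromosome 14 cluster, so their reads cannot be assigned to either. The first rose in R213G (0.81 ± 0.30 SE, limma adjusted p = 0.0382) and not in WT (0.25, adjusted p = 0.610). The second, with the seed of miR-363-3p and miR-25-3p, fell in R213G, at 16.99 ± 0.27 (SD, n = 4) in bleomycin and 17.61 ± 0.12 (n = 4) in PBS lungs (-0.62 ± 0.12 SE, adjusted p = 0.000709). In WT it was 17.28 ± 0.12 (n = 4) in bleomycin and 17.58 ± 0.09 (n = 3) in PBS lungs (-0.31 ± 0.13 SE, adjusted p = 0.0862). The 3 tested miRNAs with the seed AUUGCAC in these clusters thus gave different readings after bleomycin: in WT miR-363-3p rose, and neither miR-25-3p nor miR-92a-3p was called.

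**Figure D4:**
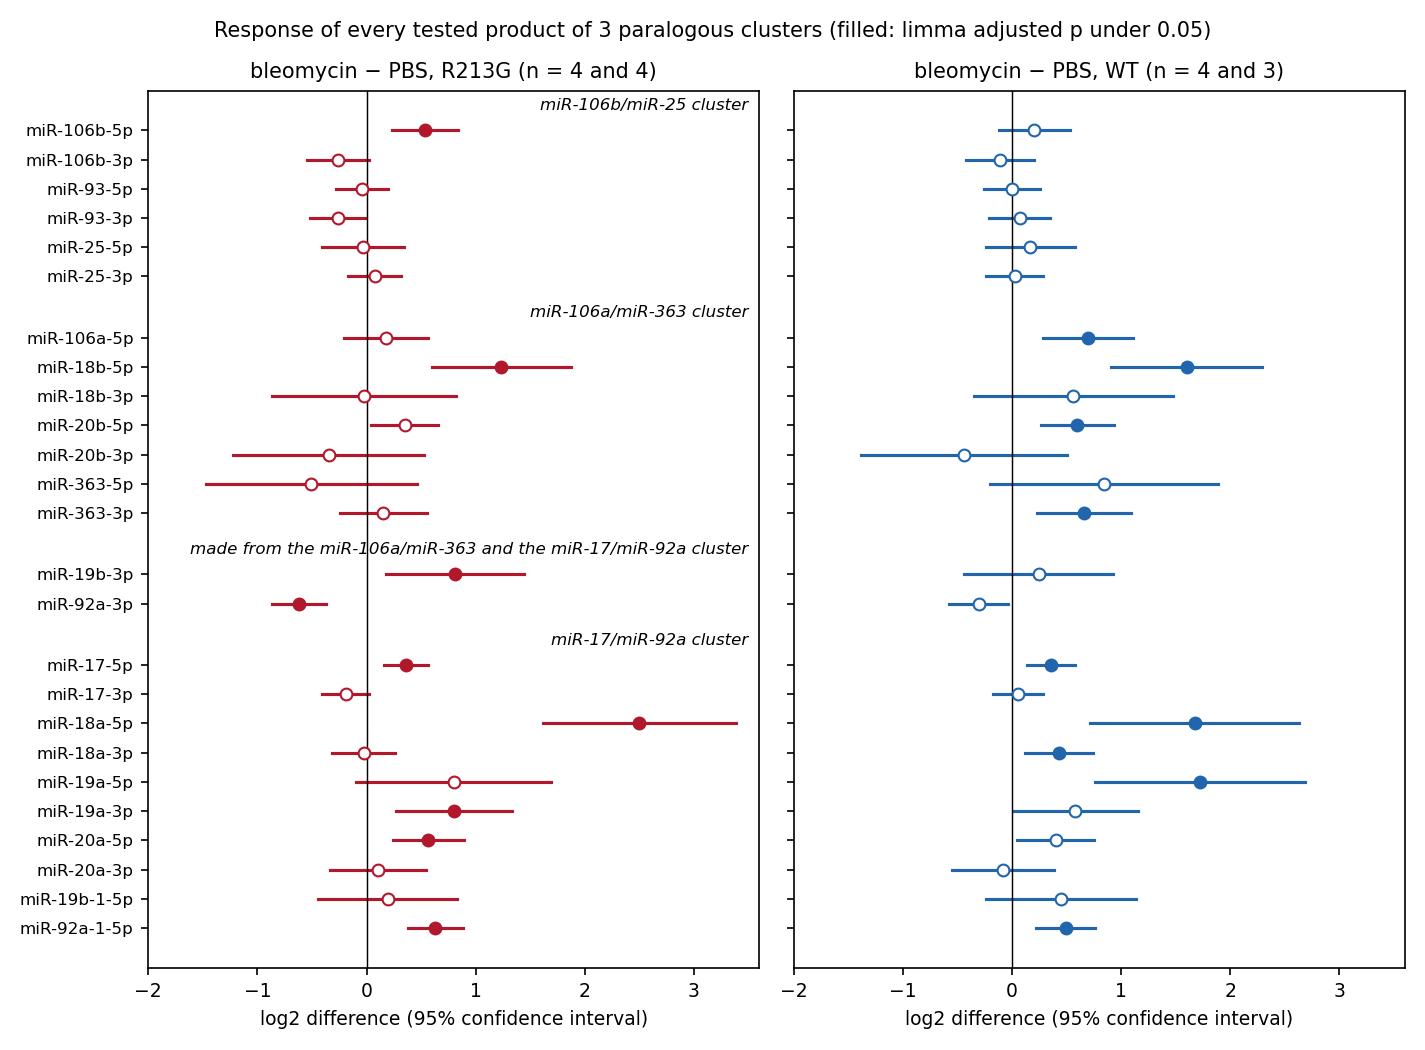
Bleomycin minus PBS log2 differences, with 95% confidence intervals, of every tested product of the miR-106b/miR-25, miR-106a/miR-363 and miR-17/miR-92a clusters in R213G (left) and WT lungs (right). Filled points passed limma's adjusted p under 0.05. The largest called differences are those of miR-18a-5p in R213G (2.50) and miR-19a-5p in WT (1.73), and miR-92a-3p is the only filled point below 0.

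Among relatives with the same seeds, 4 of 5 listed were tested. They include miR-92a-3p, already counted above as a product of the X-linked cluster. In R213G 2 rose and 2 fell, miR-92a-3p being one that fell, and in WT 1 rose and 3 did not pass. Of all tested miRNAs, 42.1% were called in R213G and 26.7% in WT. The closest relative of miR-106a-5p, miR-17-5p, rose by 0.36 ± 0.10 (SE) in each genotype (limma adjusted p = 0.00653 in R213G and 0.0162 in WT), while miR-106a-5p differed by 0.18 in R213G and 0.70 in WT. In the same library miR-106a-5p minus miR-17-5p was -5.54 ± 0.43 (SD, n = 4) in R213G bleomycin, -5.35 ± 0.22 (n = 4) in R213G PBS, -5.18 ± 0.13 (n = 4) in WT bleomycin and -5.51 ± 0.12 (n = 3) in WT PBS lungs. The WT groups did not overlap in this measure, since WT bleomycin libraries lay between -5.27 and -4.99 and WT PBS libraries between -5.65 and -5.44. The R213G groups did overlap. How often other pairs part in this way was not counted, and single miRNAs did so in WT for 32.3% of those tested.

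For miR-20a-5p, the relative of miR-20b-5p, the differences were 0.57 ± 0.15 (SE, limma adjusted p = 0.00821) in R213G and 0.40 ± 0.17 (SE, adjusted p = 0.0861) in WT. The difference of miR-20b-5p minus miR-20a-5p in the same library overlapped between bleomycin and PBS in both genotypes. For the remaining relative, miR-32-5p, it was -0.39 ± 0.13 (SE, adjusted p = 0.0248) in R213G and 0.06 in WT. Between the paralogous 3′ members, miR-363-3p minus miR-25-3p was -7.66 ± 0.46 (SD, n = 4) in R213G bleomycin, -7.74 ± 0.07 (n = 4) in R213G PBS, -7.38 ± 0.31 (n = 4) in WT bleomycin and -8.02 ± 0.20 (n = 3) in WT PBS lungs.

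Of the 8 other tested products of the miR-17/miR-92a cluster, 3 rose in R213G and 4 in WT, and none fell. Beside them, 22.2% of all tested miRNAs were called higher in R213G and 16.4% in WT. In R213G the products that rose were miR-18a-5p, miR-19a-3p (0.80) and miR-92a-1-5p (0.63). In WT they were miR-18a-5p, miR-18a-3p (0.43), miR-19a-5p (1.73) and miR-92a-1-5p (0.49). Differences that did not pass in either genotype were those of miR-17-3p (-0.19 in R213G and 0.05 in WT), miR-20a-3p (0.10 and -0.08) and miR-19b-1-5p (0.20 and 0.45). In R213G those of miR-18a-3p (-0.02) and miR-19a-5p (0.80) did not pass, nor did that of miR-19a-3p (0.58) in WT. By limma no product of the 3 clusters was called in either genotype contrast or in the interaction.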

How the data were processed

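Per the submitters' processing notes, Bowtie2 2.3.2, SAMtools 1.9 and edgeR were used, without a role or order. No source used here names the genome build or the miRBase release. The deposited table holds 1 log2 value per library and mature miRNA. From the values, these were read as log2 of 1 plus an equalized count, an inference, since the table's name mentions RPKM. A library with 0 reads can hold a small positive value, read depth is unknown, and a planned count test was not run. The authors' deposited log2 fold changes, p-values and q-values (of a parametric test) are quoted where named.

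A single limma model (limma 3.58.1 in R 4.3.3), with group means as coefficients and a variance trend on intensity, was fitted to the log2 values of the 15 libraries. The filter asked for an equalized count over 5 in 3 or more libraries and left 818 miRNAs, and the Benjamini-Hochberg adjustment ran over all of them in each contrast. The script was first tested on simulated data. Labels number replicates but do not say that each library is a separate mouse, so p-values measure the spread between these libraries. The members and all lists (other products of the clusters, relatives with the same seed, the rest of the miR-17/miR-92a cluster, and lung, leukocyte, red cell and other-organ markers) were chosen with earlier results of these data known. Named are the 7 members, the listed miRNAs and the 3 miRNAs most like the most abundant member of each cluster. Summed markers of other organs were 12.00 to 13.02 (log2) in R213G bleomycin, 14.40 to 14.90 in R213G PBS, 12.95 to 13.82 in WT bleomycin and 13.98 to 16.30 in WT PBS lungs. Of these 4, 0 rose and 2 fell in R213G, and 0 rose and 1 fell in WT. Of the 5 lung markers, 0 rose and 3 fell in R213G, and 0 rose and 2 fell in WT. Of all tested miRNAs, 19.8% were called lower in R213G and 10.3% in WT.

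Alternatives were leaving out each library, other filters, a pseudocount of 5, equal library medians, quantile normalization, no trend, array weights, a replicate block, a tag number term, a fit to only the groups compared, and a looser threshold (adjusted p under 0.1). In WT every bleomycin library has a lower tag number than every PBS library. There the tag number term can hardly be told apart from the treatment. Every R213G tag number is lower than every WT one, and the term was centred within each genotype. The median half-width of the members' 95% confidence intervals was 0.30 for the R213G response, 0.33 for the WT response and 0.44 for the interaction. Sequences and coordinates are from RefSeq (GRCm38.p6), and introns and exons from GENCODE (GRCm38).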

Additional observations from a re-analysis of the deposited data

Results flagged for a closer look

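Of 33 sets of values of 4 libraries checked for a library far from the rest, 1 stood out, about as many as chance gives, since about 1 in 20 groups is flagged by chance. In WT bleomycin lungs miR-25-3p was lowest in replicate 1, at 15.30 (log2), with the others at 15.59 to 15.62. The gap was 0.913 of the whole range, above the critical value of Dixon's test for 4 samples. The same library was also the lowest of its group for miR-106b-5p, at 11.32, and for miR-18b-5p, at 4.17. It was the highest of its group for miR-106b-3p, at 10.25, miR-106a-5p, at 6.65, miR-20b-5p, at 7.03, and miR-363-3p, at 8.34.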

How the results depend on the processing

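Over 903 results of members under an alternative, 853 kept their direction and side of the threshold, 6 lost a call, 8 gained one and 36 changed sign, 0 of them called before. Part of this was fixed in advance. Leaving out a library of a group not compared does not alter the log2 difference, and the looser threshold reuses the main fit. In R213G lungs the number of members called after bleomycin was 1, and 2 with a stricter filter, equal library medians, array weights or an adjusted p under 0.1. It was 1 to 2 when single libraries were left out. In WT lungs the number was 3, and 2 to 3 when single libraries were left out. With quantile normalization miR-20b-5p and miR-363-3p lost their calls in WT (limma adjusted p = 0.0602 and 0.111). Under that setting miR-25-3p of chromosome 5 gained one (limma adjusted p = 0.0433), so the split by cluster did not hold. With equal library medians the log2 difference of the miR-106b/miR-25 sum in WT became -0.092. That scaling moved the median of all tested miRNAs by -0.13 in R213G and -0.12 in WT. The cause was not tested for any of these changes.

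Sign changes concerned differences near 0 (largest size 0.153, lowest adjusted p 0.448). For miR-93-5p, quantile normalization gave 0.0080 in R213G, 0.059 in WT, -0.11 between genotypes after bleomycin and -0.060 after PBS, the tag number term 0.046 in R213G and 0.15 in WT, and array weights 0.022 in WT. For miR-25-3p, equal medians gave -0.058 in R213G and -0.091 in WT, and in the interaction quantile normalization gave -0.10 and array weights -0.037. For miR-106b-5p between genotypes after PBS, array weights gave 0.039, the replicate block 0.017 and the tag number term 0.019. Leaving out libraries gave, for miR-93-5p, -0.18 to 0.028 in R213G, -0.048 to 0.037 in WT, -0.072 to 0.13 between genotypes after bleomycin and -0.17 to 0.029 in the interaction. It gave -0.035 to 0.10 in WT and -0.026 to 0.13 in the interaction for miR-25-3p, -0.19 to 0.00085 after bleomycin and -0.048 to 0.16 after PBS between genotypes for miR-106b-3p, and -0.10 to 0.10 after PBS for miR-106b-5p.

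Whether replicate numbers pair the libraries was not settled. Over 21 same-numbered pairs the correlation of deviations ran from -0.14 to 0.26, with 9 over 0.1. Of 15 libraries, 6 correlated best with their own number, and no chance level was worked out for this. With the replicate block the number of members called stayed 1 in R213G, 3 in WT and 0 in the other contrasts, and 348 and 215 of all tested miRNAs were called in R213G and WT, against 344 and 218 without it. Between genotypes after bleomycin, where 0 of all tested miRNAs were called, 1 was called without WT bleomycin replicate 1 and 2 with array weights.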
